A study of Mus musculus with 12 samples.

Results

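The neuronal nicotinic acetylcholine receptor is built from subunits encoded by separate genes, and 8 of these genes were followed here: Chrna3, Chrna4, Chrna5, Chrna6, Chrna7, Chrnb2, Chrnb3 and Chrnb4. They were taken by symbol from tables of 24346 genes, and all 8 were found and passed the filter on low counts that left 17380 genes for testing. RNA had been sequenced from cells sorted out of mouse midbrain, in 12 libraries that form 4 groups of 3. The groups were G51D α-synuclein fibrils collected 12 weeks after injection, saline at 12 weeks, the same fibrils at 7 weeks, and saline at 7 weeks. G51D is a variant of α-synuclein linked to familial Parkinson's disease, and preformed fibrils seed its aggregation in neurons. All mice were C57BL/6 and all received bilateral injections into the substantia nigra, the fibrils at 20 µg and 5 µg/µL. Cells carrying hKO1, a fluorescent protein used as the mark of dopaminergic neurons, were sorted from all groups, controls included. The sources used here do not give the promoter that drives hKO1 or the age and sex of the mice. The labels do not say that the 3 libraries of a group came from separate animals, and p-values therefore rest on the spread between libraries, which may be technical.

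Nicotinic receptors are cation channels opened by acetylcholine and by nicotine, each made of a ring of subunits around a pore. The α and β subunits of the neuronal type combine in different ways, and the combination sets the affinity for agonist, the desensitisation and the passage of calcium. Midbrain dopaminergic neurons are known for receptors that contain α6 and β3, which few other brain cells make, beside receptors of α4 and β2, some with the accessory subunit α5. Receptors of α3 and β4 are known from autonomic ganglia and from the pathway from the habenula to the interpeduncular nucleus, and α7 subunits form receptors on their own. Cholinergic input to these neurons comes from brainstem nuclei, and nicotine acts on them directly.

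The 8 genes lie at 5 places in the genome. In the coordinates of the deposited files, read as GRCm38 and counted from 1, Chrnb3 lies on chromosome 8 from 27368711 to 27399730 and Chrna6 from 27403212 to 27413944, 3481 bases apart. Chrna5 (54980880 to 55007779), Chrna3 (55011343 to 55026559) and Chrnb4 (55028156 to 55048544) form a cluster on chromosome 9, with gaps of 3563 and 1596 bases. Chrna4 lies on chromosome 2 from 181022311 to 181039177, Chrna7 on chromosome 7 from 63098692 to 63212526 and Chrnb2 on chromosome 3 from 89715022 to 89764632. The deposited Chrnb2 interval reaches 31173 bases beyond the GENCODE gene and covers Adar on the other strand, so reads of the 2 genes may be mixed and Chrnb2 values are uncertain. In GENCODE, Gm47877 lies antisense to Chrnb4 and Gm44741 overlaps Chrna7 on the same strand. The sources used here do not say whether the authors' counting used the strand.

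RefSeq promoter sequences (GRCm38.p6, 250 bases before to 50 bases after a gene's start) were matched by symbol for 6 of the 8 genes, all but Chrna6 and Chrnb3. Shown are Chrna4 and the neighbours Chrna3 and Chrnb4. Chrna4 correlated with Chrna6 across the libraries at r = 0.78, and at 0.48 as deviations from group means. The synuclein and saline libraries stood apart at 12 weeks for Chrna3 and Chrnb4, as they did for 10.7% of all genes. Neither gene passed the test (edgeR adjusted p = 0.902 and 0.887). Chrna4 is at chr2:181039128-181039427, Chrna3 at chr9:55026513-55026812 and Chrnb4 at chr9:55048495-55048794, all on the minus strand and printed 5′ to 3′. Capitals mark GC boxes, searched as GGGCGG on both strands.
Chrna4: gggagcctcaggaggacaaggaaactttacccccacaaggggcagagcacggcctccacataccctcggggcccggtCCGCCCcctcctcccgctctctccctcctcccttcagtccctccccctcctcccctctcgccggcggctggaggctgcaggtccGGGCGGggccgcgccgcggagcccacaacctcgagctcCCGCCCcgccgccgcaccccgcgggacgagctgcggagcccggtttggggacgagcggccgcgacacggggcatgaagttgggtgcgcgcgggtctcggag
Chrna3: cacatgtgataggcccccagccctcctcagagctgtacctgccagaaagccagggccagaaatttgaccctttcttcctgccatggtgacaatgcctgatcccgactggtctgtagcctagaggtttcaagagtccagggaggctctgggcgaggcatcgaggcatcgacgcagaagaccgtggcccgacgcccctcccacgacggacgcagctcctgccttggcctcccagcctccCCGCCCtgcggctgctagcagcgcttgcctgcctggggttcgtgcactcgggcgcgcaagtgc
Chrnb4: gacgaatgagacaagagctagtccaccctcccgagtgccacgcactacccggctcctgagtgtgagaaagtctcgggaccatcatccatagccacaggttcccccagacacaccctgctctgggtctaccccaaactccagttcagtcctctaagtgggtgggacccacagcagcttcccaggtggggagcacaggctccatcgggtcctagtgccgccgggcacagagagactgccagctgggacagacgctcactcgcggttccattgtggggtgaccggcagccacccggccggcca
The Chrna4 promoter held 3 GC boxes and 33 CpG dinucleotides at 74.3% G and C. Chrna3 held 1 GC box and 18 CpG at 64.3%, and Chrnb4 held 0 GC boxes and 14 CpG at 63% G and C. Among 32851 promoters of this length, 35.7% held a GC box, with a median of 7 CpG and 52.7% G and C. The TATA box TATAAA, searched on both strands, was in none of the 3 and in 13.6% of all promoters. A match describes these letters and says nothing of binding.

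The sorted material held RNA of other cells beside dopaminergic neurons. Libraries held 2506730 to 5533324 assigned fragments. Of 14 dopaminergic markers all were in the tables and 13 passed the filter, with Lmx1b at most 2.86 CPM (counts scaled to library size) and Foxa2 at 0 in at least 1 library. Replicates 1 and 2 of synuclein at 12 weeks stood apart from the other libraries on the main axes of variation (principal components 2 and 1), and replicate 2 had 17409 genes detected against 19960 to 21135 elsewhere. Dopaminergic markers summed to 743.9 to 913.5 CPM in synuclein and 666.7 to 1276.3 CPM in saline libraries at 12 weeks, and to 800.8 to 2844.5 CPM in synuclein and 1510.1 to 2408.4 CPM in saline libraries at 7 weeks. Oligodendrocyte markers summed to 27165 to 39097 CPM in synuclein and 25656 to 44372 CPM in saline libraries at 12 weeks, and to 17435 to 20482 CPM in synuclein and 16694 to 25950 CPM in saline libraries at 7 weeks. Endothelial markers summed to 12996 to 20961 CPM in synuclein and 11598 to 16291 CPM in saline libraries at 12 weeks. At 7 weeks they summed to 16023 to 20892 CPM in synuclein and 16162 to 29921 CPM in saline libraries. Bsg, the highest of them (mean 6649 CPM), shares its deposited interval with other genes. In such bulk samples, fewer cells of a type and less RNA per cell cannot be told apart.

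Chrna6 was the most abundant of the 8 genes and Chrna4 the next. Averaged over the 12 libraries, in FPKM (fragments scaled to transcript length and library depth), Chrna6 was at 16.4, Chrna4 at 6.03, Chrnb3 at 4.05, Chrna3 at 2.92, Chrnb4 at 2.08, Chrnb2 at 2.0, Chrna5 at 1.45 and Chrna7 at 1.32. Chrna6 had the highest FPKM of the 8 in 11 of 12 libraries, and Chrna4 took that place in replicate 3 of synuclein at 12 weeks. Each gene in this order was above the next in only part of the libraries. Chrna6 was above Chrna4 in 11 libraries, Chrna4 above Chrnb3 in 9, Chrnb3 above Chrna3 in 8 and Chrna3 above Chrnb4 in 10. Chrnb4 was above Chrnb2 in 4 libraries, Chrnb2 above Chrna5 in 7 and Chrna5 above Chrna7 in 8, so the lower part of the order does not hold beyond the spread between libraries. By mean CPM over all 24346 genes, tested or not, 4943 genes were above Chrna6, 7402 above Chrna4 and 16192 above Chrna7. The depth behind these levels was 48 to 449 fragments per library for Chrna6, 27 to 186 for Chrna4 and 24 to 119 for Chrnb3. It was 13 to 66 fragments for Chrna3, 5 to 64 for Chrnb4, 9 to 78 for Chrnb2, 3 to 25 for Chrna5 and 0 to 30 for Chrna7.

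**Figure D1:**
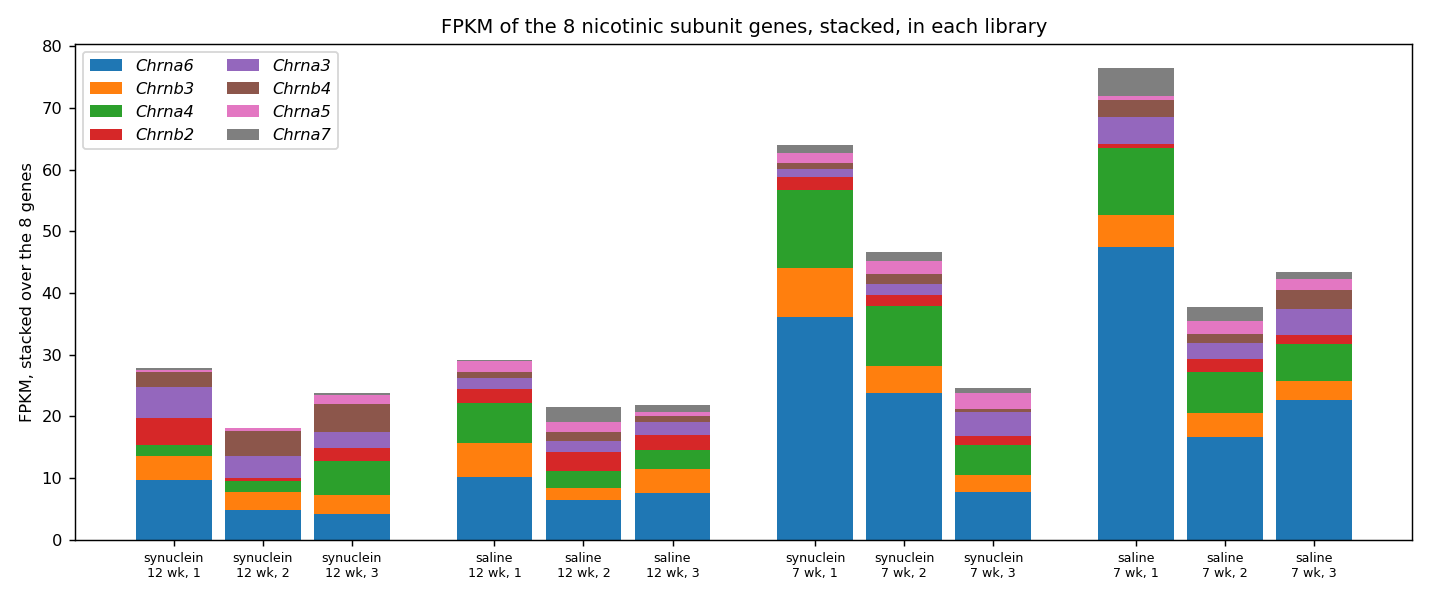
FPKM of the 8 subunit genes (y axis), stacked in each of the 12 libraries (x axis, grouped by treatment and week, with the replicate number). The stacks reach 18.2 to 29.2 FPKM at 12 weeks and 24.5 to 76.6 FPKM at 7 weeks, and Chrna6 makes up 17.7% to 34.8% of them at 12 weeks and 31.3% to 62.1% at 7 weeks.

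The comparison of 12 with 7 weeks after injection asked how these genes stood at the later time, averaged over both treatments. The libraries of 12 and 7 weeks are different samples. Time after injection therefore cannot be told apart from age at collection or from a batch of sorting, which the labels do not give. Chrna6 fell to 0.274 times its level at 7 weeks, and it was the 1 of 8 genes that edgeR called, in this or any other comparison. The call used edgeR's quasi-likelihood test with Benjamini-Hochberg adjustment over all 17380 genes at 0.05, which called 145 genes (0.834%), 51 of them lower (0.293%) and 94 higher (0.541%). At an unadjusted p under 0.05 it gave 3 of the 8 genes (Chrna4, Chrna6 and Chrna7), against 1707 of all genes (9.82%). Of the 8 genes 6 lay lower and 2 higher, with a median log2 fold change of −0.57, against −0.03 over all genes tested, of which 53.0% lay lower. In 0 of the 8 genes were the 6 libraries of 12 weeks apart from the 6 of 7 weeks, as they were in 0.944% of all genes.

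Chrna6 encodes the α6 subunit, which binds agonist together with a β subunit. Its level was 9.67, 4.80 and 4.21 FPKM in synuclein and 10.1, 6.43 and 7.59 FPKM in saline libraries at 12 weeks, in replicate order. At 7 weeks it was 36.1, 23.8 and 7.68 FPKM in synuclein and 47.5, 16.6 and 22.6 FPKM in saline libraries. In 5 of 6 libraries at 7 weeks Chrna6 was above every library at 12 weeks, and replicate 3 of synuclein at 7 weeks lay among the later libraries. The means were 7.14 ± 2.46 FPKM at 12 weeks and 25.7 ± 14.2 FPKM at 7 weeks (SD, n = 6 each). The fitted log2 fold change was −1.87 ± 0.36 (SE; edgeR adjusted p = 0.026). Within the treatments it was −1.89 ± 0.51 after synuclein (adjusted p = 0.389) and −1.84 ± 0.51 after saline (adjusted p = 0.262). Without replicates 1 and 2 of synuclein at 12 weeks, which stood apart, the fold change was −2.15 ± 0.45 with an adjusted p of 0.126, and 0 genes of all were called. Such a fit leaves 1 library in that group, which is assumed to vary like the libraries of the other groups, here and wherever the pair is left out. Leaving out any of 5 single libraries also ended the call, with adjusted p between 0.050 and 0.079: replicate 3 of saline at 7 weeks, replicates 1 and 2 of synuclein at 7 weeks, and replicates 1 and 3 of saline at 12 weeks.

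Chrnb3 encodes β3, an accessory subunit of α6 receptors, and is the neighbour of Chrna6. It was at 3.92, 2.93 and 3.11 FPKM in synuclein and 5.48, 1.94 and 3.85 FPKM in saline libraries at 12 weeks. Its level at 7 weeks was 7.93, 4.44 and 2.88 FPKM in synuclein and 5.08, 3.91 and 3.18 FPKM in saline libraries. The times overlapped, and the log2 fold change of 12 against 7 weeks was −0.39 ± 0.35, against −1.87 for Chrna6. The share of Chrnb3 in the summed FPKM of the 8 genes was 14.8 ± 3.55% at 12 weeks and 9.66 ± 2.32% at 7 weeks, and that of Chrna6 was 29.7 ± 6.79% at 12 weeks and 49.4 ± 10.7% at 7 weeks (SD, n = 6 each).

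**Figure D2:**
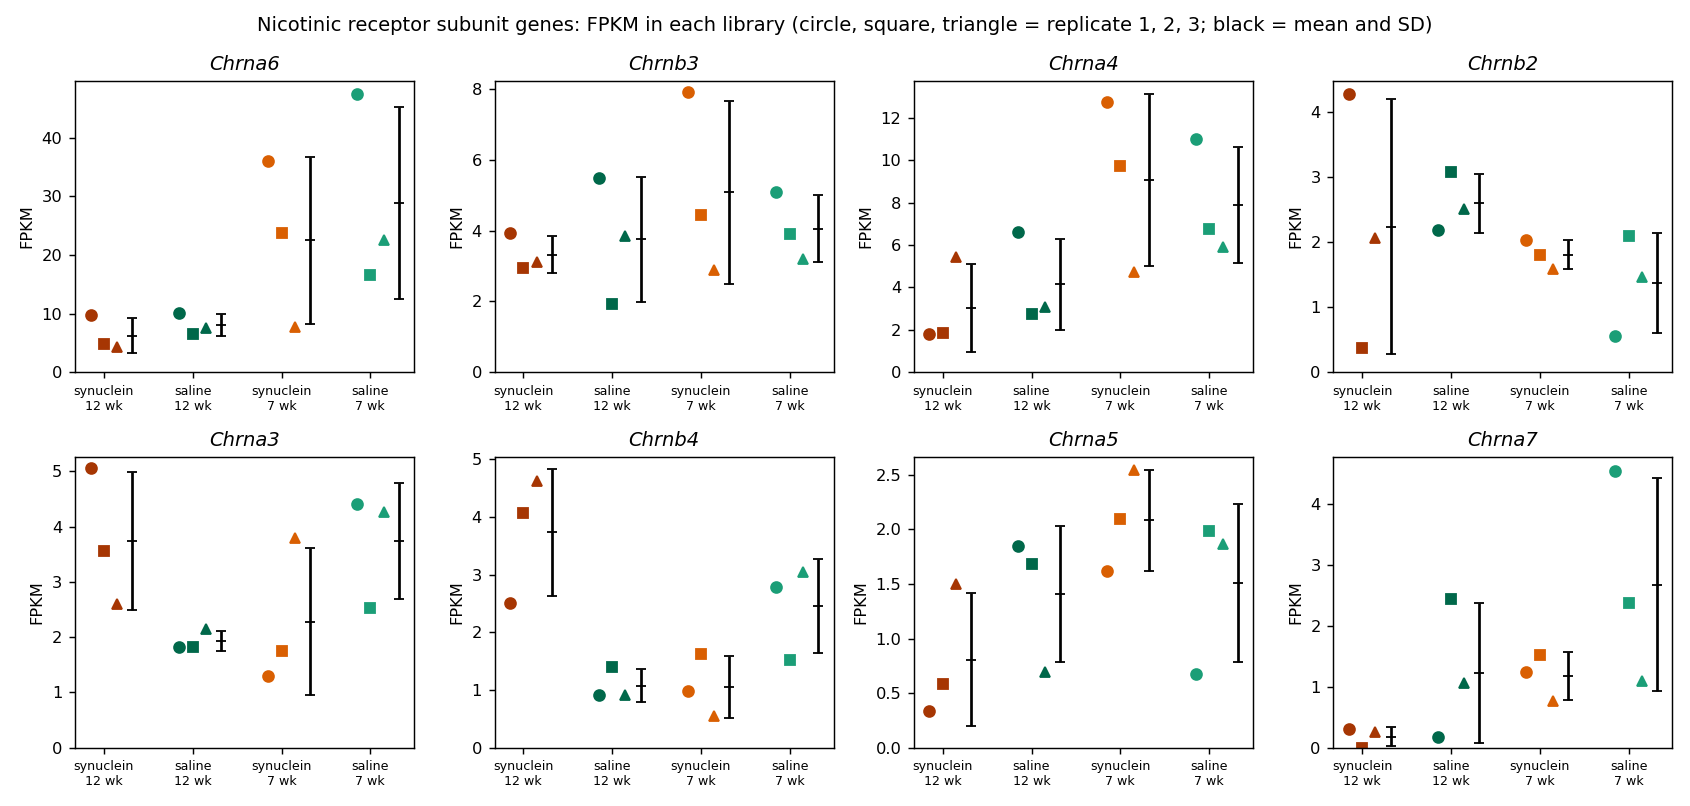
FPKM of each subunit gene (y axis, 1 panel per gene, each with its own scale) in the 12 libraries, by group (x axis), with the mean and SD of each group in black. Chrna6 is at 4.21 to 10.1 FPKM at 12 weeks and at 7.68 to 47.5 FPKM at 7 weeks, and Chrnb4 is at 2.51 to 4.62 FPKM after synuclein at 12 weeks and 0.914 to 1.40 FPKM after saline.

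Chrna4 encodes α4, the subunit that with β2 forms the most widespread high-affinity receptor of the brain. It was at 1.81, 1.85 and 5.42 FPKM in synuclein and 6.62, 2.76 and 3.07 FPKM in saline libraries at 12 weeks. The libraries at 7 weeks had 12.8, 9.71 and 4.73 FPKM in synuclein and 11, 6.73 and 5.93 FPKM in saline libraries. Of the 6 libraries at 12 weeks 4 lay below every library at 7 weeks. The log2 fold change of 12 against 7 weeks was −1.27 ± 0.37, with an edgeR adjusted p of 0.14, so it did not pass over all genes. It passed with DESeq2 (−1.25, adjusted p = 0.029) and in edgeR without replicate 3 of synuclein at 12 weeks (−1.63, adjusted p = 0.038), and without replicates 1 and 2 of that group it was −0.85 ± 0.38.

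Chrnb2 encodes β2, the partner of α4 and of α6. It was at 4.27, 0.368 and 2.06 FPKM in synuclein and 2.19, 3.07 and 2.51 FPKM in saline libraries at 12 weeks, and at 2.03, 1.79 and 1.59 FPKM in synuclein and 0.551, 2.09 and 1.46 FPKM in saline libraries at 7 weeks. The highest and the lowest value of the 12 fell in the same group, synuclein at 12 weeks. The log2 fold change of 12 against 7 weeks was 0.61 ± 0.50, the largest upward value of the 8 genes and not past the test. Since the deposited interval covers Adar as well, part of this signal may belong to that gene, which was not tested.

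Chrna3 and Chrnb4 encode α3 and β4, which form a receptor together, and share the cluster with Chrna5. Chrna3 was at 5.06, 3.57 and 2.60 FPKM in synuclein and 1.83, 1.82 and 2.14 FPKM in saline libraries at 12 weeks. Chrna3 at 7 weeks was at 1.30, 1.74 and 3.8 FPKM in synuclein and 4.41, 2.53 and 4.27 FPKM in saline libraries. Averaged over the treatments the times did not differ beyond the spread, with a log2 fold change of −0.13 ± 0.43. Within the treatments it was 0.70 ± 0.60 after synuclein and −0.96 ± 0.61 after saline, neither past the test.

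Chrnb4 was at 2.51, 4.08 and 4.62 FPKM in synuclein and 0.915, 1.40 and 0.914 FPKM in saline libraries at 12 weeks. At 7 weeks it was at 0.980, 1.62 and 0.545 FPKM in synuclein and 2.79, 1.53 and 3.05 FPKM in saline libraries. All synuclein libraries were higher at 12 than at 7 weeks and all saline libraries lower, a pattern of opposite separation seen in 0.685% of all genes. The log2 fold change of 12 against 7 weeks was 1.81 ± 0.67 after synuclein (edgeR adjusted p = 0.524) and −1.15 ± 0.67 after saline (adjusted p = 0.767). Without replicates 1 and 2 of synuclein at 12 weeks it was 2.13 ± 0.80 after synuclein, with an SE that comes from the spread of the other groups.

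Chrna5 encodes α5, an accessory subunit that does not bind agonist in the usual way. It was at 0.336, 0.587 and 1.5 FPKM in synuclein and 1.85, 1.68 and 0.691 FPKM in saline libraries at 12 weeks, and at 1.62, 2.10 and 2.54 FPKM in synuclein and 0.677, 1.98 and 1.86 FPKM in saline libraries at 7 weeks. The log2 fold change of 12 against 7 weeks was −0.75 ± 0.59. After synuclein the times did not overlap (−1.39 ± 0.85), and after saline they did (−0.11 ± 0.83).

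Chrna7 encodes α7, which forms receptors highly permeable to calcium. It was at 0.302, 0 and 0.252 FPKM in synuclein and 0.177, 2.45 and 1.06 FPKM in saline libraries at 12 weeks, and at 1.24, 1.53 and 0.760 FPKM in synuclein and 4.55, 2.39 and 1.10 FPKM in saline libraries at 7 weeks. The synuclein libraries at 12 weeks held 2, 0 and 2 fragments of it, and a count of 0 in replicate 2 allows up to 3 fragments, or 0.597 CPM before TMM scaling, by counting error alone. The log2 fold change of 12 against 7 weeks was −1.79 ± 0.78 (edgeR adjusted p = 0.433), a fitted value that rests on these low counts.

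Within each treatment alone, edgeR called 0 of all genes (0%) between 12 and 7 weeks, and so 0 of the 8. At an unadjusted p under 0.05 it gave 1318 genes after synuclein (7.58%) and 1289 after saline (7.42%). DESeq2 called 59 genes after synuclein and 173 after saline, among them Chrna6 after saline (−1.84, adjusted p = 0.020), and limma-voom called 0 in each. The libraries of 12 and 7 weeks were apart for 3 of the 8 genes after synuclein, namely Chrna5, Chrna7 and Chrnb4, against 12.3% of all genes. After saline they were apart for 4, namely Chrna3, Chrna6, Chrnb2 and Chrnb4, against 16.2% of all genes. The 8 genes had a median log2 fold change of −1.02 after synuclein and −0.94 after saline. Of them 5 lay lower after synuclein and 7 after saline.

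**Figure D3:**
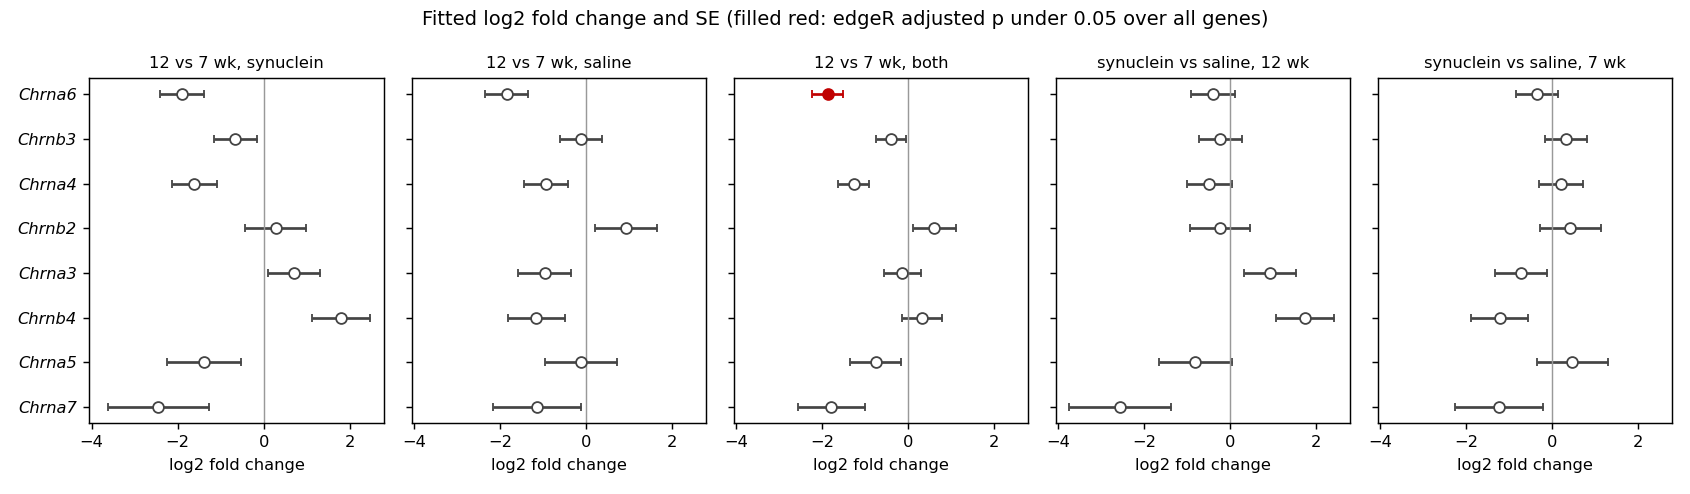
Fitted log2 fold change with its SE (x axis) for each subunit gene (y axis) in 5 comparisons, with the gene past an edgeR adjusted p of 0.05 filled in red. Chrna6 at −1.87 in 12 against 7 weeks over both treatments is the 1 filled point, and Chrnb4 lies at 1.81 after synuclein and −1.15 after saline.

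The comparison of synuclein with saline asked what the fibrils changed, and none of the 8 genes passed the test at either time. EdgeR called 0 of 17380 genes (0%) at 12 weeks and 0 (0%) at 7 weeks. At an unadjusted p under 0.05 it gave 968 genes at 12 weeks (5.57%) and 285 at 7 weeks (1.64%). DESeq2 called 12 genes at 12 weeks and 0 at 7 weeks, limma-voom called 0 at both, and neither tool called any of the 8. Of the 8 genes, Chrna7 and Chrnb4 at 12 weeks and none at 7 weeks were under an unadjusted p of 0.05. At 12 weeks 2 of the 8 lay higher and 6 lower after synuclein, with a median log2 fold change of −0.32 against −0.04 over all genes. At 7 weeks 4 lay higher and 4 lower, with a median of −0.08 against 0.01.

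At 12 weeks the largest differences between the treatments were in Chrna7 and Chrnb4. Chrna7 was at 0.184 ± 0.162 FPKM after synuclein and 1.23 ± 1.14 FPKM after saline (SD, n = 3 each), and replicate 1 of saline lay within the synuclein range. Its log2 fold change was −2.56 ± 1.18 (edgeR adjusted p = 0.887). Chrnb4 was at 3.73 ± 1.10 FPKM after synuclein and 1.08 ± 0.282 FPKM after saline, and the groups did not overlap. Its log2 fold change was 1.73 ± 0.67 (edgeR adjusted p = 0.887), and 2.06 ± 0.80 without replicates 1 and 2 of synuclein, where the SE again comes from the other groups. Chrna3, its partner, was at 3.74 ± 1.24 FPKM after synuclein and 1.93 ± 0.182 FPKM after saline, also without overlap, with a log2 fold change of 0.93 ± 0.61 (adjusted p = 0.902). These 2 genes of the 8 had groups apart, as did 10.7% of all genes.

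The subunits known from dopaminergic neurons had smaller fitted differences between the treatments. At 12 weeks the log2 fold change of synuclein against saline was −0.40 ± 0.51 for Chrna6, −0.23 ± 0.50 for Chrnb3, −0.48 ± 0.52 for Chrna4 and −0.24 ± 0.70 for Chrnb2. Chrna5 was at −0.81 ± 0.85. At 7 weeks it was −0.36 ± 0.48 for Chrna6, 0.32 ± 0.50 for Chrnb3, 0.20 ± 0.51 for Chrna4, 0.42 ± 0.71 for Chrnb2 and 0.47 ± 0.83 for Chrna5. None passed the test, and with standard errors of 0.48 to 0.85 the values do not show that the treatments were alike.

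At 7 weeks Chrnb4 and Chrna7 had the largest differences between the treatments, and Chrnb4 ran opposite to its value at 12 weeks. Chrnb4 was at 1.05 ± 0.539 FPKM after synuclein and 2.45 ± 0.812 FPKM after saline (SD, n = 3 each), with a log2 fold change of −1.22 ± 0.67. Chrna7 was at 1.18 ± 0.388 FPKM after synuclein and 2.68 ± 1.74 FPKM after saline, with −1.24 ± 1.03, and Chrna3 had −0.72 ± 0.60. All 3 had an edgeR adjusted p of 1, and the groups overlapped for all 8 genes, whereas they were apart in 8.45% of all genes. Averaged over both times, synuclein against saline gave −1.90 ± 0.78 for Chrna7 (edgeR adjusted p = 1) and −0.38 ± 0.35 for Chrna6, with 0 of all genes called by edgeR (0%), 431 genes at an unadjusted p under 0.05 (2.48%), 3 called by DESeq2 and 0 by limma-voom. The 6 synuclein libraries overlapped the 6 saline libraries for all 8 genes, and stood apart in 0.0748% of all genes.

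Whether synuclein against saline differed at 12 weeks from 7 weeks was tested with an interaction term, and 0 of the 8 genes passed. EdgeR, DESeq2 and limma-voom called 0 of all genes (0%), and edgeR gave 780 at an unadjusted p under 0.05 (4.49%). Chrnb4 had a difference of 2.96 ± 0.95 on the log2 scale (edgeR adjusted p = 0.952), and 3.29 ± 1.02 without replicates 1 and 2 of synuclein at 12 weeks, again with 1 library left in that group. Chrna3 had 1.66 ± 0.86. For Chrna6 it was −0.05 ± 0.69. Under upper quartile scaling the median of all genes in this contrast moved by −0.13. All 8 endothelial markers lay higher in it (median 0.63) and all 8 microglia markers lower (median −1.45). Over all genes the median was −0.05, with 52.6% lower. Dopaminergic and pan-neuronal genes had medians of −0.06 and 0.06. The part of cell makeup in the Chrnb4 value was not tested.

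The fall of Chrna6 ran beside falls of other neuronal genes and a rise of oligodendrocyte genes. Of all genes tested 53.0% lay lower at 12 than at 7 weeks, and 0.834% passed the test. Of 13 dopaminergic genes tested 12 lay lower at 12 than at 7 weeks, with a median log2 fold change of −1.26, and 2 passed the test. These were Th, which encodes tyrosine hydroxylase (−1.29 ± 0.27, adjusted p = 0.038), and Slc18a2, the vesicular monoamine transporter (−1.45 ± 0.33, adjusted p = 0.047). All 10 pan-neuronal genes lay lower, with a median of −1.02, and 2 passed, Snap25 of the vesicle fusion machinery (−1.40 ± 0.23, adjusted p = 0.016) and Stmn2, a regulator of axonal microtubules (−1.04 ± 0.22, adjusted p = 0.035). Pan-neuronal genes summed to 599.7 to 943.9 CPM in synuclein and 555.6 to 834.6 CPM in saline libraries at 12 weeks, and to 988.8 to 2584.4 CPM in synuclein and 1271.6 to 1780.2 CPM in saline libraries at 7 weeks. All 8 oligodendrocyte markers lay higher, with a median of 0.82, and 4 passed (Mbp, Mobp, Cnp and Cldn11). Endothelial markers had a median of −0.31, microglia −0.82 and astrocyte markers 0.05. Ependymal markers, of which all 7 lay higher and 0 passed, had a median of 2.46, but their times overlapped. They summed to 481.8, 14.5 and 23.8 CPM in synuclein and 64.1, 235.4 and 33.3 CPM in saline libraries at 12 weeks. At 7 weeks they summed to 9.16 to 48.0 CPM. The part of these shifts in the fall of Chrna6 was not tested by the fit, and the ratios that follow set the genes against the neuronal markers.

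The sum of a list of genes from neurons that use other subunits stood apart in 1 library. The list of cholinergic and habenulo-interpeduncular genes summed to 77.4 CPM in replicate 3 of synuclein at 7 weeks and to 13.2 to 32.2 CPM in the other 11 libraries. Gpr151, a receptor known from habenular neurons, had its highest level of the 12 libraries in that replicate and made up the largest part of that sum, while Chat and Gpr151 were each at 0 in at least 1 library. Not every gene of the list was raised. In synuclein libraries at 7 weeks Pou4f1 was at 4.57 to 6.07 CPM and Slc18a3 at 2.86 to 3.71 CPM. Over all libraries they were at 3.45 to 11.3 and 0 to 12.0 CPM. Isl1 was at 3.43 to 6.94 CPM in synuclein libraries at 7 weeks, which included its highest value of the 12. Tac2 was at 0.282 to 16.3 CPM over all libraries (mean 3.17 CPM), and its value in each library is not reported here. The same replicate had the highest Chrna3 and the lowest Chrnb4 and Chrna6 of its group. It also had the lowest dopaminergic sum of its group (800.8 CPM) and the highest microglia sum of all libraries (513.4 CPM). The part of any of these cells in the subunit values was not tested. Without this replicate the log2 fold change of 12 against 7 weeks over both treatments was 0.17 ± 0.45 for Chrna3 and −2.06 ± 0.31 for Chrna6 (edgeR adjusted p = 0.013). Over both treatments the 5 tested genes of the cholinergic and habenulo-interpeduncular list had a median of −0.14 between 12 and 7 weeks. GABA and glutamate neuron markers summed to 26.5 to 104.4 CPM, with a median of −0.85 over 4 genes tested. Neither list had a gene called in any comparison.

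Across the 12 libraries Chrna6, Chrna4 and Chrnb3 had the highest correlations with Th among the 8 genes. The Pearson correlation of log2 CPM with Th was 0.88 for Chrna6, 0.83 for Chrna4 and 0.68 for Chrnb3, and −0.09 for Chrnb4 and −0.34 for Chrnb2. As deviations from group means it was 0.70 for Chrna6, 0.62 for Chrna4, 0.69 for Chrnb3, 0.35 for Chrnb4 and −0.31 for Chrnb2, so the value for Chrnb4 differed in sign within groups and over all libraries. Chrna6 correlated with Chrna4 at 0.78 and with Chrnb3 at 0.69, Chrna4 with Chrnb3 at 0.68, and Chrna3 with Chrnb4 at 0.43. As deviations from group means these values were, in the same order, 0.48, 0.78, 0.66 and −0.44. The value for Chrna3 with Chrnb4 thus differed in sign within groups and over all libraries. These are descriptions over 12 libraries that share depth and cell makeup, and no test was made.

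**Figure D4:**
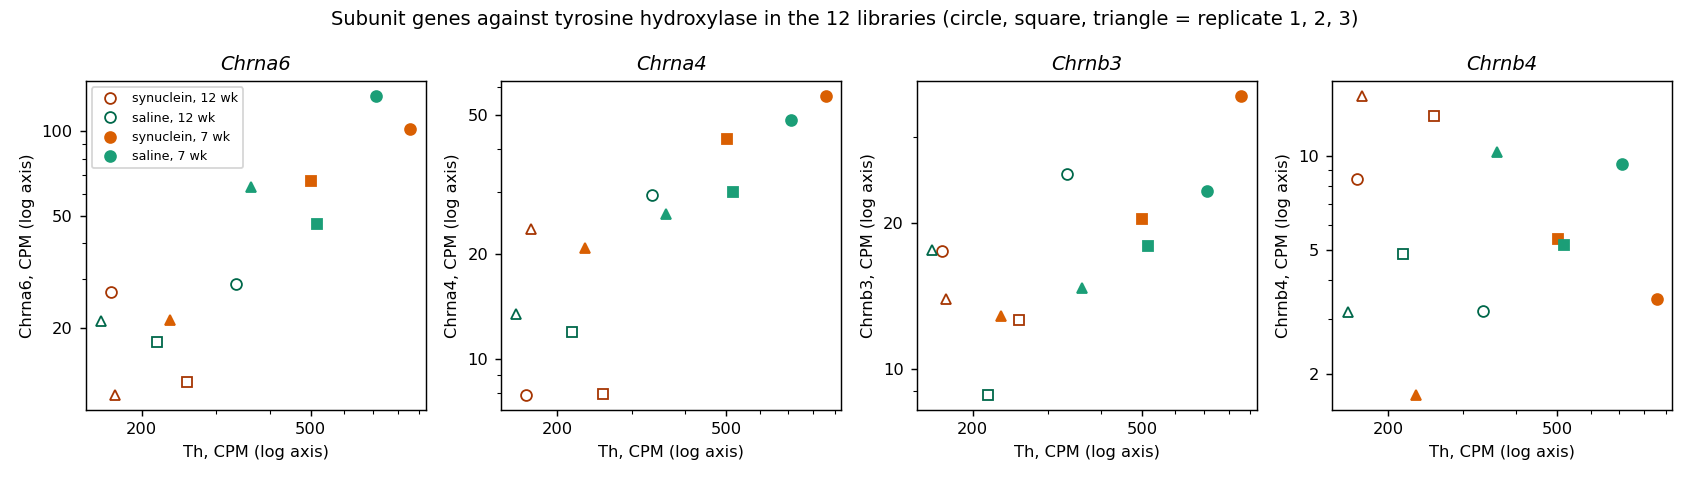
CPM of Chrna6, Chrna4, Chrnb3 and Chrnb4 (y axes, log scale) against CPM of Th (x axes, log scale), 1 point per library, with open points at 12 weeks and filled points at 7 weeks. Chrna6 and Chrna4 rise with Th (r = 0.88 and 0.83 on log2 CPM), while r is −0.09 for Chrnb4 over the 12 libraries.

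Each gene was then expressed per library relative to the dopaminergic genes, as its log2 CPM minus the mean log2 CPM of Th, Slc6a3 and Slc18a2. For Chrna6 this log2 ratio was −1.64, −3.39 and −3.17 in synuclein and −2.91, −2.52 and −2.03 in saline libraries at 12 weeks, and −2.31, −2.08 and −2.61 in synuclein and −1.66, −2.56 and −1.89 in saline libraries at 7 weeks. The times overlapped, and 12 minus 7 weeks was −0.42 (exact permutation within treatment, two-sided p = 0.205, adjusted p = 0.505 over 32 tests). For Chrna4 the difference was −0.03 (exact p = 0.905). For Chrnb3 it was 0.91 (exact p = 0.010, adjusted p = 0.32), with a log2 ratio of −2.91 ± 0.54 at 12 weeks and −3.82 ± 0.28 at 7 weeks (SD, n = 6 each). Chrnb4 was at 1.63 (exact p = 0.045), Chrnb2 at 1.68 (exact p = 0.055), Chrna3 at 1.21, Chrna5 at 0.56 and Chrna7 at −0.11. The smallest p these 400 arrangements can give is 0.005.

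**Figure D5:**
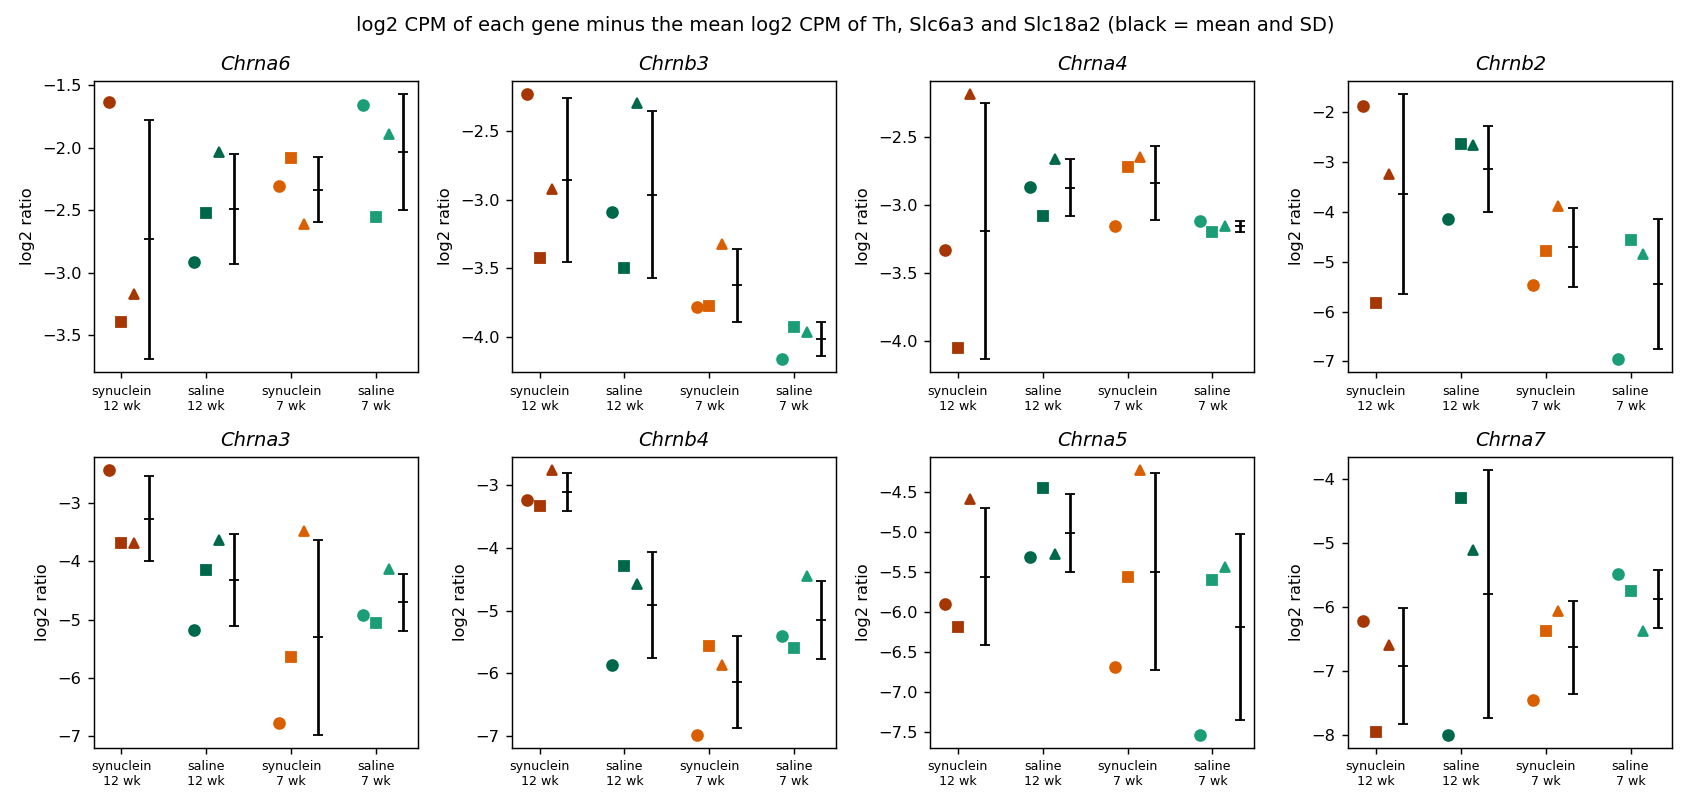
Log2 CPM of each subunit gene minus the mean log2 CPM of Th, Slc6a3 and Slc18a2 (y axis, a log2 ratio, own scale per panel) in the 12 libraries by group (x axis), with mean and SD in black. Chrnb3 lies at −3.50 to −2.23 at 12 weeks and −4.16 to −3.32 at 7 weeks, and Chrna6 at −3.39 to −1.64 at 12 weeks and −2.61 to −1.66 at 7 weeks.

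Relative to 5 pan-neuronal genes (Rbfox3, Map2, Tubb3, Snap25 and Syt1) every difference of 12 minus 7 weeks is shifted by the same constant from its value relative to the dopaminergic genes, so the order of the genes is fixed and only the sizes and p-values are new. Chrna6 was at −0.74 (exact permutation p = 0.060, adjusted p = 0.32), with a log2 ratio of −1.91 ± 0.67 at 12 weeks and −1.17 ± 0.56 at 7 weeks (SD, n = 6 each). Chrnb3 was at 0.59 (exact p = 0.020, adjusted p = 0.32), Chrna4 at −0.35, Chrnb2 at 1.37 and Chrnb4 at 1.32. Of the 32 tests, which also covered synuclein against saline, 0 passed after adjustment. A single test at the smallest possible p of 0.005 could not pass over 32 tests, so this result does not show that the ratios were unchanged. Each gene was tested against both references, and its 2 tests are not independent. Without replicate 2 of synuclein at 12 weeks, 2 ratios to each reference passed, Chrnb2 at 2.23 and Chrnb3 at 1.05 relative to the dopaminergic genes and 1.87 and 0.69 relative to the pan-neuronal genes (adjusted p = 0.040).

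Among other genes around the receptor 1, Ywhah, was called between 12 and 7 weeks, while most genes for receptor assembly lay lower. Of 8 further nicotinic subunit genes 4 passed the filter, and 0 were called between 12 and 7 weeks. They included Chrna1 and Chrnb1, of the muscle receptor, at 0.03 ± 0.27 and −0.65 ± 0.38, and Chrna2, a neuronal subunit, at 0.04 ± 0.45. Of 12 genes for receptor assembly and the Ly6 family of receptor regulators 10 lay lower at 12 weeks, with a median of −0.63, and 5 of these were at an unadjusted p under 0.05. Of all genes tested 53.0% lay lower, 9.82% were at an unadjusted p under 0.05 and 0.834% were called. Among the assembly genes Ywhah, a 14-3-3 protein, fell (−0.89 ± 0.17, edgeR adjusted p = 0.025), and 14-3-3 proteins are known to aid the assembly of α4 receptors. Ywhah was at 381.9, 437.1 and 441.5 CPM in synuclein and 303.1, 271.8 and 284.3 CPM in saline libraries at 12 weeks, and at 800.6, 593.8 and 414.8 CPM in synuclein and 627.9, 678.1 and 739.8 CPM in saline libraries at 7 weeks.

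Genes that make, move and break down acetylcholine had a median log2 fold change of 0.38 between 12 and 7 weeks over 7 genes tested, with 0 called. The enzyme acetylcholinesterase, encoded by Ache, was at −1.32 ± 0.40 (edgeR adjusted p = 0.156) and shares its locus with Mir8116. Bche, another cholinesterase, was at 0.11 ± 0.31 and the choline transporter Slc44a1 at 0.76 ± 0.21 (adjusted p = 0.12). Of 5 muscarinic receptor genes 2 were tested, Chrm1 at 0.20 ± 0.37 and Chrm5, the type known from dopaminergic neurons, at −0.30 ± 0.70. Of 10 other ligand-gated channel genes tested 9 lay lower, with a median of −1.05, 5 of them at an unadjusted p under 0.05 and 0 called. Over all genes tested these shares were 53.0% lower, 9.82% at an unadjusted p under 0.05 and 0.834% called. The channel genes included the ATP receptor P2rx4 at −0.34 ± 0.23, while the glycine receptor subunit Glrb lay at 0.53 ± 0.21. In the comparisons of synuclein with saline none of these lists had a gene called.

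The genes whose log2 CPM was most like that of a subunit over the 12 libraries, among 11277 genes, are given as a description. For Chrna6 they were Cmas, Eif4a2, Snrpn, Cplx1 and Diras2, with Pearson correlations of 0.93, 0.92, 0.91, 0.91 and 0.91. For Chrna4 they were Slc10a4, Rab3c, Zdhhc21, Napb and Nr4a2, at 0.93 for the first 4 and 0.92 for Nr4a2, and Slc10a4 and Nr4a2 are also on the dopaminergic list. For Chrnb3 they included Ncald, Snrpn, Ipo4 and Snurf at 0.85 to 0.89. Snrpn and Snurf share a deposited interval and are not independent of each other. The deposited intervals of Eif4a2 and Ncald also hold other genes. For Chrnb4 the nearest was Naa30 at 0.91, for Chrna3 Herc4 at 0.83, for Chrna5 Pdp1 at 0.92, for Chrna7 Prdm4 at 0.89 and for Chrnb2 Slc9a9 at 0.95. Chrna5 and Chrna7 had at most 25 and 30 fragments in any library.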

How the data were processed

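RNA from sorted hKO1-positive midbrain cells was amplified with the SMARTer Ultra-Low kit, per the labels' protocols. The submitters' processing notes name TopHat2 2.0.13, Bowtie2 2.2.3 and Cufflinks 2.2.1. For 24346 genes the authors deposited estimated counts and FPKM in each library, and 60 further columns of per-sample values were not used. The deposited estimated counts are not raw: 98.9% to 99.0% of values per library were whole multiples, within 0.02 fragments, of a step between 0.685 and 1.30, and dividing by it gave the assigned fragments. FPKM was used to set levels of different genes side by side, and CPM (TMM-scaled) and fitted folds to compare groups. The sources used here name no genome build. Deposited intervals end at the RefSeq GRCm38.p6 starts of Chrna4, Chrna7, Chrnb2 and Chrnb4, and were read as GRCm38.

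Deposited estimated counts were rounded and tested in edgeR 4.0.16 (R 4.3.3). The filterByExpr defaults left 17380 genes. All 12 libraries entered 1 quasi-likelihood fit with a mean for each of the 4 groups (8 residual degrees of freedom, common biological coefficient of variation 46.6%). P-values were adjusted by Benjamini-Hochberg over all genes tested (threshold 0.05). Log2 CPM used a prior count of 2. Ratios were tested by exact permutation of labels within strata. Sequences come from RefSeq and overlaps from GENCODE. The alternatives included DESeq2 1.42.0 and limma 3.58.1 (voom on counts, and log2 FPKM with a pseudocount). The procedure was tested on simulated data.

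The 8 genes and the lists were chosen with earlier results of these data known. Named beside them are the called members of each list, otherwise up to 3 with the highest mean CPM, and for each subunit gene the 5 genes of highest Pearson correlation among models with a mean of at least 10 CPM. The text gives all 5 for Chrna6 and Chrna4, 4 for Chrnb3 and the nearest for the others, and some genes that the rule names are not reported here.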

Additional observations from a re-analysis of the deposited data

Results flagged for a closer look

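Chrnb4 moved in opposite directions between 12 and 7 weeks in the 2 treatments: all 3 synuclein libraries were higher at 12 weeks than any at 7 weeks, and all 3 saline libraries were lower. In CPM it was at 8.46, 13.4 and 15.6 in synuclein and 3.19, 4.84 and 3.16 in saline libraries at 12 weeks, and at 3.47, 5.44 and 1.71 in synuclein and 9.44, 5.19 and 10.3 in saline libraries at 7 weeks. The difference between the treatments in the change over time was 2.96 ± 0.95 on the log2 scale (edgeR adjusted p = 0.952). It did not pass over all genes, and 0.685% of all genes had the same kind of opposite separation. The libraries held 5 to 64 fragments of Chrnb4 each. In the same contrast all 8 endothelial markers lay higher (median 0.63) and all 8 microglia markers lower (median −1.45). The part of cell makeup in the Chrnb4 value was not tested.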

How the results depend on the processing

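The 63 reported values of the 8 genes were recomputed under up to 34 alternatives, giving 1410 values. Of these 1355 kept their direction and their side of the threshold, 9 lost a call, 8 gained a call and 38 changed sign, all 38 in values that no test had called. Genes called over 12 against 7 weeks in both treatments numbered 145, and 449 with DESeq2, 1 and 5 with log2 FPKM at pseudocounts of 0.1 and 1, 0 without replicates 1 and 2 of synuclein at 12 weeks, and 24 to 214 leaving out each library. Subunit genes called there numbered 2 with DESeq2, 0 with limma-voom, both pseudocounts or without those 2 libraries, and 0 to 2 leaving out each library. Chrna6 ranged from −2.15 to −1.58. It lost its call with limma-voom (−1.72, adjusted p = 0.061), at pseudocounts of 0.1 (−1.69, 0.133) and 1 (−1.58, 0.097), and without the libraries named beside it. After saline, genes called numbered 0, and 7 with no filter, 173 with DESeq2, 2 and 1 at the pseudocounts, 49 with the compared groups alone, 14 without the 2 libraries and 0 to 9 leaving out each library. Subunit genes called after saline numbered 1 with DESeq2 and 1 with the compared groups alone, Chrna6 in both (−1.84 and −1.82). After synuclein the count was 59 with DESeq2 and 0 to 2 leaving out each library. For synuclein against saline, DESeq2 called 12 genes at 12 weeks and 3 over both times, the pseudocount of 0.1 gave 2 and 1, that of 1 gave 1 at 12 weeks, and leaving out each library gave 0 to 1 at 12 weeks, at 7 weeks and over both times. In the interaction both pseudocounts gave 1. Ratios passing numbered 0 to 2 for each reference when each library was left out. Chrna7 was not tested under the stricter CPM filter.

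The labels state no pairing by replicate number. Deviations of same-numbered libraries correlated at −0.060 to 0.11, and those of libraries numbered 1 at −0.021 to 0.11. Of 12 libraries 5 correlated best with their own number. Some such matches arise without pairing, so these values cannot decide whether the numbers pair the samples. With the replicate block edgeR called 246 genes over both treatments and 34 after saline, Chrna6 was at −1.79 (adjusted p = 0.005), and Chrna5 after saline was at 0.078.

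Log2 values that changed sign under an alternative follow, and the cause was not tested. Without replicates 1 and 2 of synuclein at 12 weeks, synuclein against saline at 12 weeks was 0.37 for Chrna4 and 0.13 for Chrna5, and the interaction was 0.17 for Chrna4. The interaction for Chrna6 was 0.0050 with limma-voom and 0.037 and 0.067 at pseudocounts of 0.1 and 1. Chrnb2 at 12 against 7 weeks after synuclein was −0.31 with limma-voom and −0.21 at the pseudocount of 0.1, and the ratio of Chrna4 without Th was 0.00018. Leaving out each library in turn gave these ranges. Synuclein against saline at 12 weeks ranged from −1.21 to 0.047 for Chrna4, −1.06 to 0.29 for Chrnb2 and −0.50 to 0.17 for Chrnb3. At 7 weeks it ranged from −0.13 to 0.51 for Chrna4, −0.88 to 0.19 for Chrna6 and −0.16 to 0.60 for Chrnb3. The change of 12 against 7 weeks ranged from −0.54 to 0.81 for Chrnb2 after synuclein, from −0.47 to 0.26 for Chrna5 and −0.46 to 0.19 for Chrnb3 after saline, and from −0.26 to 0.17 for Chrna3 over both. The interaction for Chrna6 ranged from −0.57 to 0.51, and the ratios to dopaminergic genes from −0.28 to 0.18 for Chrna4 and −0.49 to 0.44 for Chrna7.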
